A study of Mus musculus with 11 samples.

Results

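The mouse genes numbered Zfp900 to Zfp999 encode zinc finger proteins, and 54 of them were read in this series out of the 55291 gene symbols of its count table. They were chosen by name and by a summed count of at least 20 over the 11 libraries. Of 64 symbols with such a name, 10 fell below that count, of which 4 had no read in any library. Zfp978 lay just inside the limit with a summed count of 26, and Zfp973 lay just outside it with 18. The filter on low counts left 51 of the 54 in the statistical fit, and Zfp978, Zfp986 and Zfp989 were not tested. The RNA came from bone marrow cells sorted as lineage-negative, c-Kit-positive and Sca-1-positive, the LSK fraction that holds blood stem cells and early progenitors; the labels say that RNA was isolated from individual mice. Tg libraries (n = 4) came from mice of the genotype Phf6R274X Tg, KO libraries (n = 3) from Phf6 knock out mice and WT libraries (n = 4) from wild type mice, all labelled with the strain C57BL/6. Phf6 is an X-linked chromatin gene mutated in human leukaemia, and R274X is a stop codon in it. The promoter of the transgene, the strain in which it was founded and any backcrossing, how the knockout was made, and the age and sex of the mice are not stated in the labels.

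Most zinc finger genes of this kind in the mouse belong to the KRAB family. Such a protein binds DNA through a row of zinc fingers, and its KRAB domain binds the co-repressor Trim28, which gathers the methyltransferase Setdb1, heterochromatin proteins and DNA methylation at the bound site. Many of the bound sites are copies of retrotransposons. The genes arose by repeated duplication, so that they lie in clusters of near-identical copies and differ between mouse strains; the part of strain in the Tg values was not tested.

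Of the 54 genes, 53 are annotated as protein-coding in GENCODE M21 (GRCm38), and Zfp939 is a transcribed pseudogene. They lie on 11 chromosomes, with 15 on chromosome 4, 13 on chromosome 17 and 8 on chromosome 7. When neighbours no more than 1 Mb apart were joined, 5 blocks held more than 1 of these genes, and 19 genes stood alone. The largest block took up chromosome 4 from 145510759 to 147848366, a span of 2.3376 Mb with all 15 of that chromosome. In order along the chromosome it held Zfp990, Zfp986, Zfp987, Zfp992, Zfp981, Zfp993, Zfp989, Zfp991, Zfp988, Zfp978, Zfp982, Zfp985, Zfp979, Zfp984 and Zfp933. The next largest block held 10 genes on chromosome 17. Copies share sequence: a median of 21.3% of the 150-base windows in transcripts of the chromosome 4 genes also occurred in another gene, against 0.039% for the other 39 genes. How the read counting treated reads that match several genes, and whether it used strand, is not stated in the labels.

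Promoters are shown for the 6 genes of the block whose RefSeq promoter (GRCm38.p6) held the joined motif ATTGGGCGG, a choice made after the values were seen. The shared motif is thus no finding. Zfp990 is not among the 6 because it had no promoter in the set searched, so that whether its promoter holds the motif is not known. The promoter window of Zfp534, described further on, was searched and did not hold the motif. The motif joins a CCAAT box on the reverse strand, ATTGG, to a GC box, GGGCGG, and both strands were searched. Each line gives the 150 bases before the gene start in RefSeq, 5′ to 3′ on the strand of the gene, with the motif in capitals.
Zfp979: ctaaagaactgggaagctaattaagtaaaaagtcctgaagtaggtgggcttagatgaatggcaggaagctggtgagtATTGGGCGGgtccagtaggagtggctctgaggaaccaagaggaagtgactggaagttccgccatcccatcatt
Zfp985: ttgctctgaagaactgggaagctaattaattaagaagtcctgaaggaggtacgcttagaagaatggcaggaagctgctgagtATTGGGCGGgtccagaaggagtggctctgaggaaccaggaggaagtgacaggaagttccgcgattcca
Zfp981: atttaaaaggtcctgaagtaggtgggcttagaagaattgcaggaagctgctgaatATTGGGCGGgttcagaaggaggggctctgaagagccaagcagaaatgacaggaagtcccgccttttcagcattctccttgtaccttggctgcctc
Zfp988: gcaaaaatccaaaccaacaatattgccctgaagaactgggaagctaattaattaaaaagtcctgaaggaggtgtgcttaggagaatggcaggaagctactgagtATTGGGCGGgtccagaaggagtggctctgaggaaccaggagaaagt
Zfp982: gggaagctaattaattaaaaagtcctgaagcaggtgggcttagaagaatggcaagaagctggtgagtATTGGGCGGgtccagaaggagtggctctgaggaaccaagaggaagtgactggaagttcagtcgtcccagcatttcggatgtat
Zfp984: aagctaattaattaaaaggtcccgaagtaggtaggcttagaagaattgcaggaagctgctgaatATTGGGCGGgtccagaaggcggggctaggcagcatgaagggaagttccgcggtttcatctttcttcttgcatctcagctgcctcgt
These stretches are Zfp979 chr4:147642509-147642658 (minus strand), Zfp985 chr4:147553127-147553276 (plus strand), Zfp981 chr4:146514770-146514919 (plus strand), Zfp988 chr4:147305454-147305603 (plus strand), Zfp982 chr4:147492267-147492416 (plus strand) and Zfp984 chr4:147809789-147809938 (minus strand). The motif began between 46 and 95 bases before the gene start, nearest in Zfp988 and farthest in Zfp981. It occurred in 84 of 32851 RefSeq promoters (0.256%), each taken from 250 bases before to 50 bases after the gene start, in 8 of the 45 listed genes with a promoter in the table and in 6 of the 9 on chromosome 4. The shorter motifs inside it were common, at 37.4% of promoters for ATTGG and 35.7% for GGGCGG. Over the aligned part of the 300-base windows the Zfp979 and Zfp982 promoters were 94.7% identical, Zfp985 and Zfp988 94.3%, Zfp979 and Zfp985 91.5%, and Zfp979 and Zfp984 81.2%.

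Levels are given as CPM, counts scaled by the TMM-corrected library total, and where genes are compared with each other as CPM per kb of exon. Total counts ran from 20990446 to 45632018 per library, so that 3 counts, the limit that a count of 0 allows, stood for 0.0655 to 0.144 CPM, counting error only. Phf6 lay at 182.5 to 277.5 CPM in Tg, 15.4 to 23.9 CPM in KO and 109.9 to 141.8 CPM in WT libraries. Xist, the RNA of the inactive X chromosome in females, lay at 0.0307 to 0.323 CPM in Tg, 32.6 to 41.1 CPM in KO and 48.8 to 54.1 CPM in WT libraries. The summed level of 4 Y-linked genes was 54.3 to 367.7 CPM in Tg, 0.0335 to 113.8 CPM in KO and 0.0634 to 134.0 CPM in WT libraries, and 5 KO and WT libraries held both Xist and Y-linked reads: KO replicates 1 and 2, with 113.8 and 1.74 CPM of Y-linked reads, and WT replicates 1, 2 and 4, with 129.3, 134.0 and 21.1 CPM. A single male or female mouse does not normally give both, so that these libraries go against the label of individual mice, and the n of KO and WT may not count single mice. Xist set Tg apart from KO and WT, so that a difference between Tg and the other genotypes cannot be told apart from one that goes with sex. The LSK markers were all read, with a summed level of 2542 to 2978 CPM in Tg, 2551 to 2759 CPM in KO and 2347 to 3320 CPM in WT libraries.

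The 54 genes spanned a wide range of levels. In WT libraries Zfp984 had the highest level per length, 9.06 ± 2.26 CPM per kb of exon (SD, n = 4), followed by Zfp954 with 6.79 ± 0.969 and Zfp982 with 6.30 ± 2.24. These 3 neighbours in the order did not differ beyond their spread. Zfp986 was the lowest, with 0.0299 CPM per kb of exon in WT. In read level, which does not allow for length, Zfp945, Zfp984 and Zfp942 had the highest means over the 11 libraries, at 33.1, 27.1 and 24.9 CPM. Zfp945 averaged 34.9 ± 7.51 CPM in Tg (n = 4), 34.1 ± 1.66 CPM in KO (n = 3) and 30.7 ± 4.87 CPM in WT (n = 4), and Zfp984 28.3 ± 6.69 CPM in Tg, 26.7 ± 1.04 CPM in KO and 26.4 ± 6.59 CPM in WT. The groups of both genes overlapped in every pair. The 3 genes that moved up the order most between WT and Tg were in the chromosome 4 block: Zfp990 was 3rd of 54 in Tg, with 5.80 CPM per kb of exon, and 48th in WT with 0.165, Zfp979 was 24th in Tg with 2.76 and 43rd in WT with 0.645, and Zfp985 was 31st in Tg with 1.87 and 44th in WT with 0.418.

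**Figure D1:**
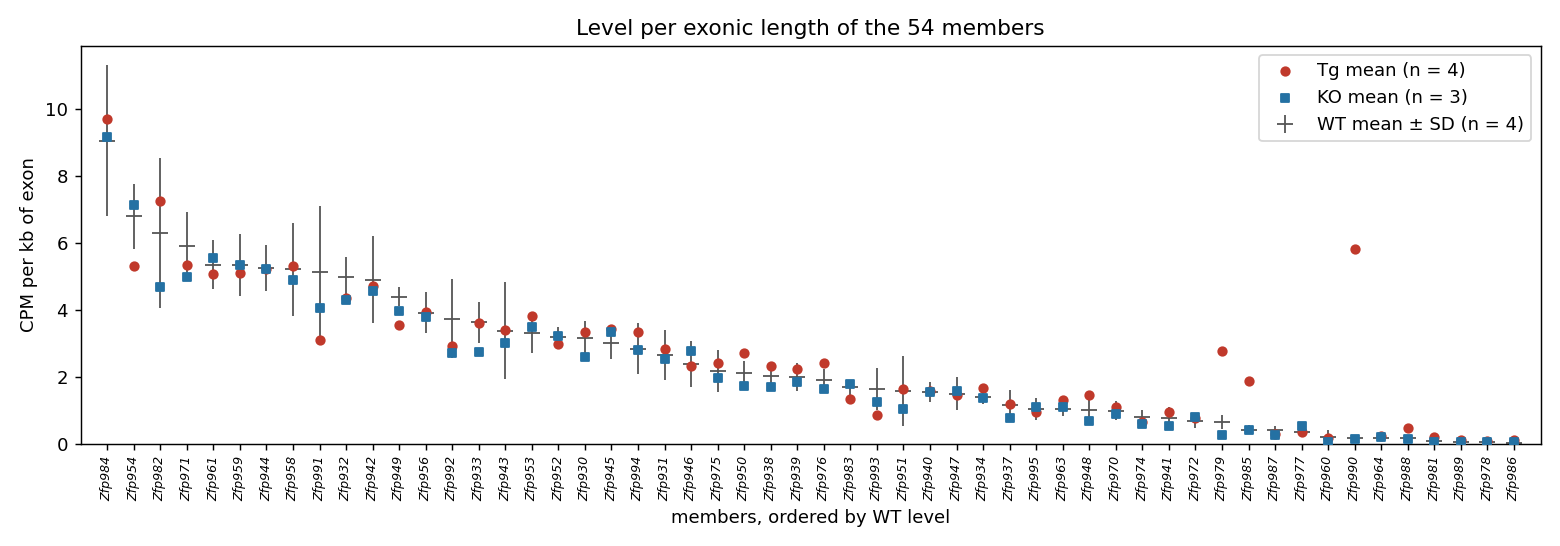
Level per exonic length (CPM per kb of exon, linear axis) of the 54 genes, ordered by the WT mean. Circles are Tg means, squares KO means and bars WT means ± SD; Zfp990, Zfp979 and Zfp985 stand far above their WT level in Tg, at 5.80, 2.76 and 1.87 CPM per kb of exon.

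The comparison of Tg with WT asked which genes of the family differed in LSK cells that carry the R274X transgene. Zfp990, Zfp985 and Zfp979 rose in Tg and no gene of the family fell, by edgeR's quasi-likelihood test at a Benjamini-Hochberg adjusted p under 0.05 over all genes. This is 3 of 51, where 4.92% of all 17183 genes were called, so that the count itself is near the background. By direction, 2.54% of all genes were called higher and 2.39% lower. All 3 lie in the chromosome 4 block, which had 12 genes tested, and none of the 39 genes elsewhere was called.

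Zfp990 (ENSMUSG00000078503.9, chromosome 4, 145510759 to 145539188, plus strand), the first gene of the block, had 17.3, 19.8, 12.9 and 31.1 CPM in the Tg libraries, against 0.984, 0.338, 0.317 and 0.671 CPM in the WT libraries. In reads these were 693, 734, 394 and 1014 in Tg and 31, 11, 10 and 14 in WT. Every Tg library lay far above every WT library. The log2 fold change was 5.14 (SE 0.40, edgeR adjusted p = 9.72e-05), or 35.2-fold. Of its transcript windows, 0.509% also occurred in another gene. The call was kept when any 1 of the 11 libraries was left out, with log2 fold changes between 4.85 and 5.56.

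Zfp979 (ENSMUSG00000066000.12, chromosome 4, 147611937 to 147642513, minus strand) carries in RefSeq the synonym Ssm1b, the name of a strain-specific modifier of transgene methylation. It had 5.97, 7.49, 10.5 and 21.4 CPM in the Tg libraries, against 3.84, 2.06, 2.03 and 2.68 CPM in the WT libraries. The groups did not overlap, and Tg replicate 4 was the highest by a wide margin. Its log2 fold change was 2.10 (SE 0.47, edgeR adjusted p = 0.0307). The call was lost without Tg replicate 4 and without each of the 4 WT libraries (edgeR adjusted p up to 0.0879, without WT replicate 2), while the log2 fold change stayed between 1.59 and 2.33. It was also lost with the Y-linked level as a covariate (log2 fold change 1.56, edgeR adjusted p = 0.0561). Of its transcript windows, 16.3% occurred in other genes, and the gene model Gm13155 overlaps it on the same strand, so that its counts are uncertain.

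Zfp985 (ENSMUSG00000065999.13, chromosome 4, 147553277 to 147585198, plus strand) is the neighbour of Zfp979 in the list and points the other way. It had 5.25, 3.50, 3.77 and 8.91 CPM in the Tg libraries, against 1.68, 0.860, 1.01 and 1.25 CPM in the WT libraries. The groups did not overlap, and the lowest Tg library lay above the highest WT library. The log2 fold change was 2.15 (SE 0.35, edgeR adjusted p = 0.0111), and none of its transcript windows occurred in another gene. No single library ended this call (log2 fold change 1.80 to 2.36).

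Without the 5 libraries in which Xist and Y-linked reads occurred together, 1 KO and 1 WT library were left, taken to vary like the Tg libraries. The log2 fold change of Tg against WT was then 5.99 for Zfp990 (SE 0.71, edgeR adjusted p = 0.0363), 2.49 for Zfp979 (SE 0.79, edgeR adjusted p = 0.392) and 2.41 for Zfp985 (SE 0.67, edgeR adjusted p = 0.340), and the calls of the last 2 genes were lost in this smaller set.

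**Figure D2:**
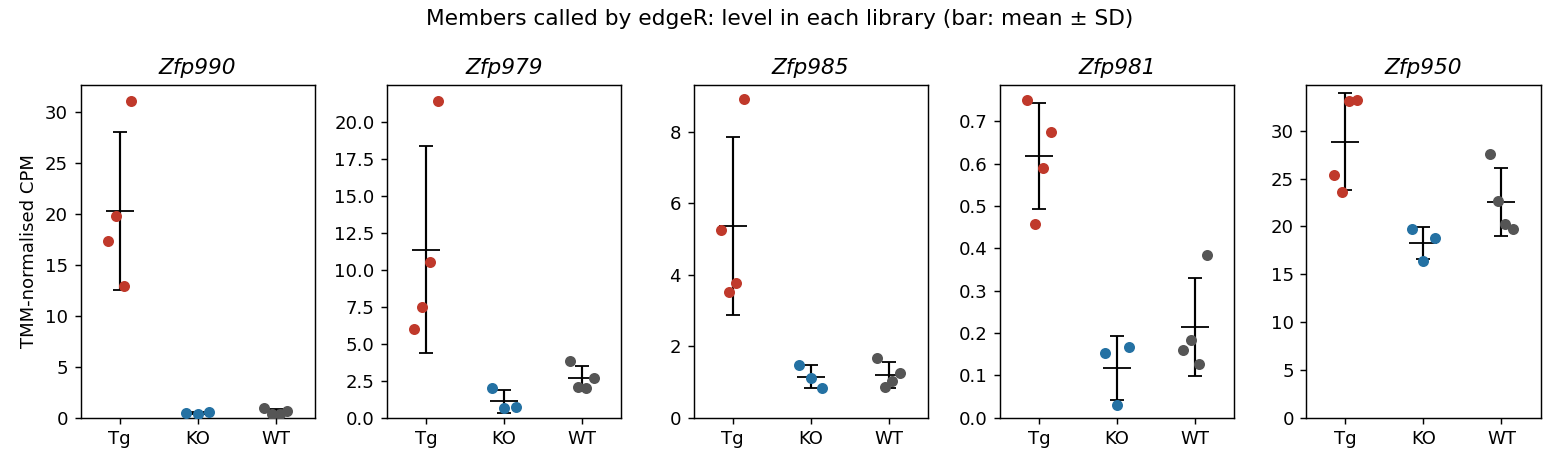
TMM-normalised CPM (linear axes, each from 0) of the 5 genes called in any comparison, 1 point per library for Tg (n = 4), KO (n = 3) and WT (n = 4), with mean ± SD. Tg points lie above all KO and WT points for Zfp990, Zfp979, Zfp985 and Zfp981, while for Zfp950 Tg and WT overlap.

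The remaining genes of the block did not pass. Zfp981 had 0.750, 0.458, 0.590 and 0.676 CPM in Tg libraries and 0.159, 0.184, 0.127 and 0.383 CPM in WT libraries, and Zfp988 had 1.02, 1.24, 0.984 and 1.81 CPM in Tg libraries and 0.667, 0.246, 0.634 and 0.240 CPM in WT libraries. Both had groups that did not overlap, at levels of few reads, with log2 fold changes of 1.56 (SE 0.50, edgeR adjusted p = 0.0957) and 1.48 (SE 0.42, edgeR adjusted p = 0.0694). Of the transcript windows of Zfp988, 28.6% occurred in other genes. Gm26624 overlaps Zfp988 on the same strand and C230088H06Rik on the opposite strand, so that its counts are uncertain. Zfp984 and Zfp982, whose promoters hold the same joined motif and are shown with the others, had log2 fold changes of 0.10 (SE 0.19) and 0.20 (SE 0.30), neither called. Zfp933 at the far end of the block was at -0.01 (SE 0.18). Zfp993 had the lowest log2 fold change of the block, -0.92 (SE 0.30, edgeR adjusted p = 0.104), and 60.9% of its transcript windows occurred in other genes. Zfp988, Zfp982 and Zfp993 were picked out after their values were seen.

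Of the 51 genes, 5 had Tg libraries all above WT, against 4.5% of all genes, and 3 had Tg libraries all below WT, against 5.34%. The 5 were the block's Zfp990, Zfp979, Zfp985, Zfp981 (which passed the filter on low counts only through its Tg libraries) and Zfp988. The 3 were Zfp993 in the block, Zfp954 on chromosome 7 and Zfp949 on chromosome 9, the last 2 named after their values were seen, with log2 fold changes of -0.36 (SE 0.12) and -0.31 (SE 0.10), not called by edgeR. In all 30 of 51 lay above WT, where 50.8% of all genes did, and their median log2 fold change was 0.04, against 0.01 over all genes. This direction turned with the Y-linked level as a covariate, where 17 of 51 (median -0.10) and 49.7% of all genes lay above WT. Without the libraries in which Xist and Y-linked reads occurred together, 39 of 52 (median 0.40) and 53.2% of all genes did. When only library totals were used for scaling, 25 of 51 lay above WT, but so did only 43.0% of all genes. At an unadjusted p under 0.05 there were 10 of 51, against 22.1% of all genes. DESeq2 called 4 of the 51 higher, against 5.48% of all genes, and 1 lower, against 5.65%, adding Zfp988 (higher) and Zfp954 (lower).

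**Figure D3:**
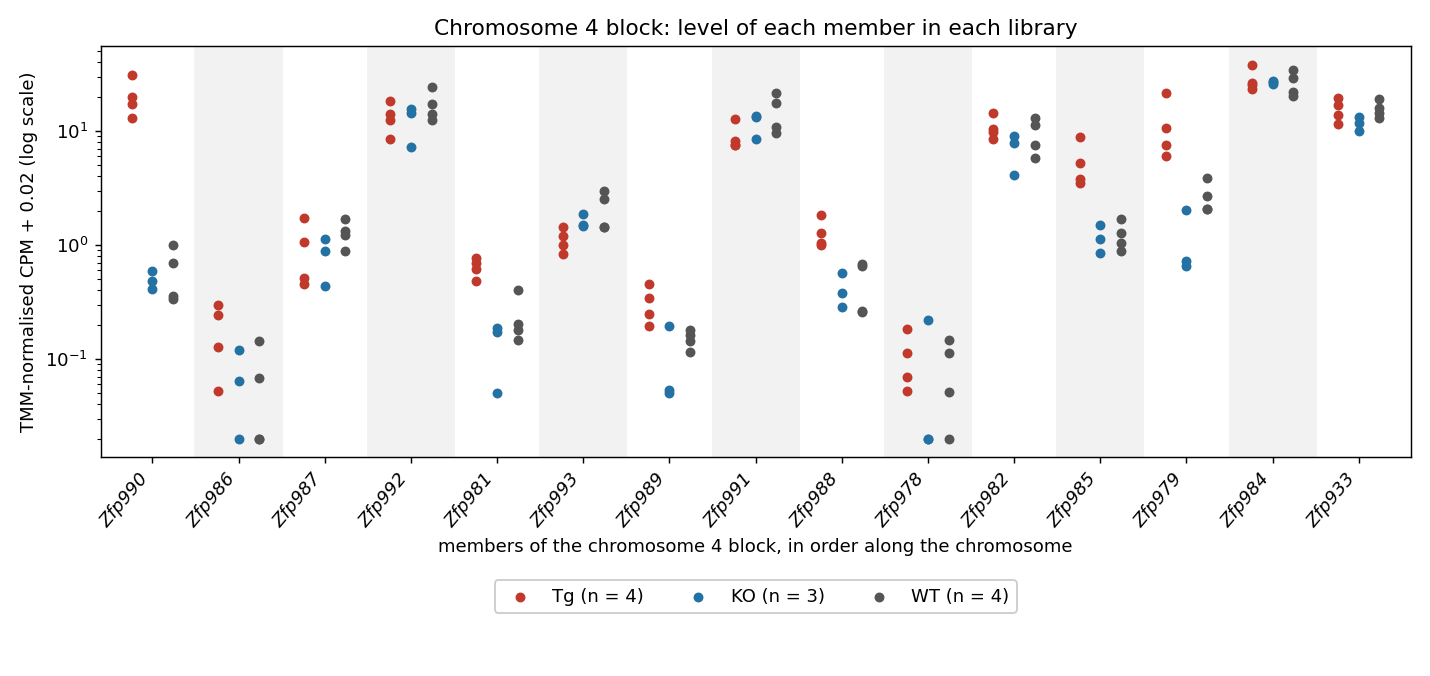
Level of the 15 genes of the chromosome 4 block in each library, in order along the chromosome, as TMM-normalised CPM plus 0.02 on a log axis, for Tg (n = 4), KO (n = 3) and WT (n = 4). Zfp990 shows the widest gap, with 12.9 to 31.1 CPM in Tg libraries and at most 0.984 CPM in the others, while neighbours such as Zfp992 and Zfp984 overlap between genotypes.

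The comparison of Tg with KO set the transgenic mice beside those lacking Phf6; it shares the Tg libraries with the comparison above and is not independent of it. Zfp990, Zfp979, Zfp985, Zfp981 and Zfp950 rose in Tg and none fell, 5 of 51 by edgeR where 5.69% of all genes were called, 2.63% higher and 3.06% lower. The first 4 are in the chromosome 4 block. Of these, Zfp981 passed the filter on low counts only through its Tg libraries, the group where it was high. With the KO and WT libraries fitted alone, 50 genes of the family were tested.

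Zfp990 had 0.459, 0.390 and 0.570 CPM in the KO libraries, below each Tg value given above. The log2 fold change of Tg against KO was 5.42 (SE 0.46, edgeR adjusted p = 0.000160). Zfp979 had 2.01, 0.630 and 0.704 CPM in the KO libraries, also below all Tg values, and its log2 fold change was 3.32 (SE 0.56, edgeR adjusted p = 0.00797). Both calls were kept whichever library was left out, with log2 fold changes of 5.14 to 5.59 for Zfp990 and 2.82 to 4.08 for Zfp979. Without the 5 libraries in which Xist and Y-linked reads occurred together, Zfp990 was at 5.15 (edgeR adjusted p = 0.0263), Zfp979 at 4.01 (edgeR adjusted p = 0.168), Zfp985 at 2.67 (edgeR adjusted p = 0.234), Zfp981 at 1.86 (edgeR adjusted p = 0.537) and Zfp950 at 0.62 (edgeR adjusted p = 0.509).

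Zfp985 had 1.49, 1.11 and 0.838 CPM in the KO libraries, with no overlap with Tg. Its log2 fold change was 2.22 (SE 0.39, edgeR adjusted p = 0.0100), and the call was lost without KO replicate 2 or KO replicate 3 (edgeR adjusted p up to 0.0512) and with the Y-linked level as a covariate (1.79, edgeR adjusted p = 0.0639). Zfp981 had 0.153, 0.0300 and 0.168 CPM in the KO libraries, or 7, 1 and 5 reads, against 30, 17, 18 and 22 reads in the Tg libraries. Its log2 fold change was 2.36 (SE 0.57, edgeR adjusted p = 0.0373), and the call was lost when any Tg or KO library was left out (up to 0.135, without KO replicate 2) and with the Y-linked covariate (edgeR adjusted p = 0.156). Zfp981 also lost this call when no filter on low counts was used. It overlaps 3 genes on the opposite strand, so that without a known strand setting its reads are uncertain.

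Zfp950 (ENSMUSG00000074733.14, chromosome 19, 61053840 to 61140840, minus strand) was the only called gene outside the block. It had 25.4, 23.6, 33.2 and 33.3 CPM in the Tg libraries, 19.7, 16.4 and 18.8 CPM in the KO libraries and 27.6, 22.6, 20.3 and 19.7 CPM in the WT libraries. Tg lay above KO without overlap and overlapped WT. On the log2 scale it was 0.66 above KO (SE 0.16, edgeR adjusted p = 0.0375) and 0.36 above WT (SE 0.15, edgeR adjusted p = 0.182). The call was lost without Tg replicates 1, 3 or 4 or any KO library (up to 0.147, without KO replicate 2) and with the Y-linked covariate (edgeR adjusted p = 0.210), and Grk5, a receptor kinase gene, overlaps Zfp950 on the opposite strand. Scaling by library totals only also ended the call of Zfp950 (edgeR adjusted p = 0.065).

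Tg libraries lay all above KO for 9 of 51, against 9.81% of all genes, and all below KO for 2, Zfp954 and Zfp993, against 11%. In all 38 of 51 lay above KO, with a median log2 fold change of 0.16 and of 0.01 over all genes, where 52.0% of all genes lay above. Without Tg replicate 4 the count was 29 of 51 and the median 0.07, and with the Y-linked level as a covariate 19 of 51 and -0.14. DESeq2 called 7 of the 51 higher, against 5.6% of all genes, and 1 lower, against 5.58%, adding Zfp948 and Zfp988 (higher) and Zfp954 (lower). Zfp948, on chromosome 17, was named after its values were seen.

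The comparison of KO with WT asked what loss of Phf6 did to the family. None of the 51 passed edgeR's test, where 0.0233% of all genes were called, 0.00582% higher and 0.0175% lower. DESeq2 called 0 as well, where it called 0.297% of all genes higher and 0.279% lower, and 1 of the 51 had an unadjusted p under 0.05, against 7.09% of all genes. That gene was Zfp979, with the KO and WT values given above, which did not overlap: its log2 fold change was -1.22 (SE 0.52, edgeR adjusted p = 0.689). It was the 1 gene with KO all below WT, against 3.72% of all genes, and 0 lay all above, against 3.79%.

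The next lowest p-values were those of Zfp933 and Zfp974. Zfp933 averaged 11.7 ± 1.61 CPM in KO (n = 3) and 15.5 ± 2.58 CPM in WT (n = 4), with a log2 fold change of -0.41 (SE 0.20, edgeR adjusted p = 0.710). Zfp974, on chromosome 7, averaged 4.32 ± 0.912 CPM in KO and 6.06 ± 1.54 CPM in WT, with a log2 fold change of -0.49 (SE 0.25, edgeR adjusted p = 0.733). The KO and WT libraries of both genes overlapped. Of the 51 genes 15 lay above WT and 36 below, with a median log2 fold change of -0.15, where 48.8% of all genes lay above. The other numbered Zfp genes that were tested leaned the same way, with 98 above WT and 185 below. In the chromosome 4 block 11 of 12 lay below WT, with a median of -0.40; without WT replicate 1 this was 8 of 12 (median -0.24), and without the libraries in which Xist and Y-linked reads occurred together 6 of 13 (median 0.27). WT replicate 1 held the highest WT level of 42 of the 51 genes, against 24.8% of all genes. Without it 28 of 51 lay above WT and the median was 0.04. Without the libraries in which Xist and Y-linked reads occurred together 34 of 52 lay above WT.

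**Figure D4:**
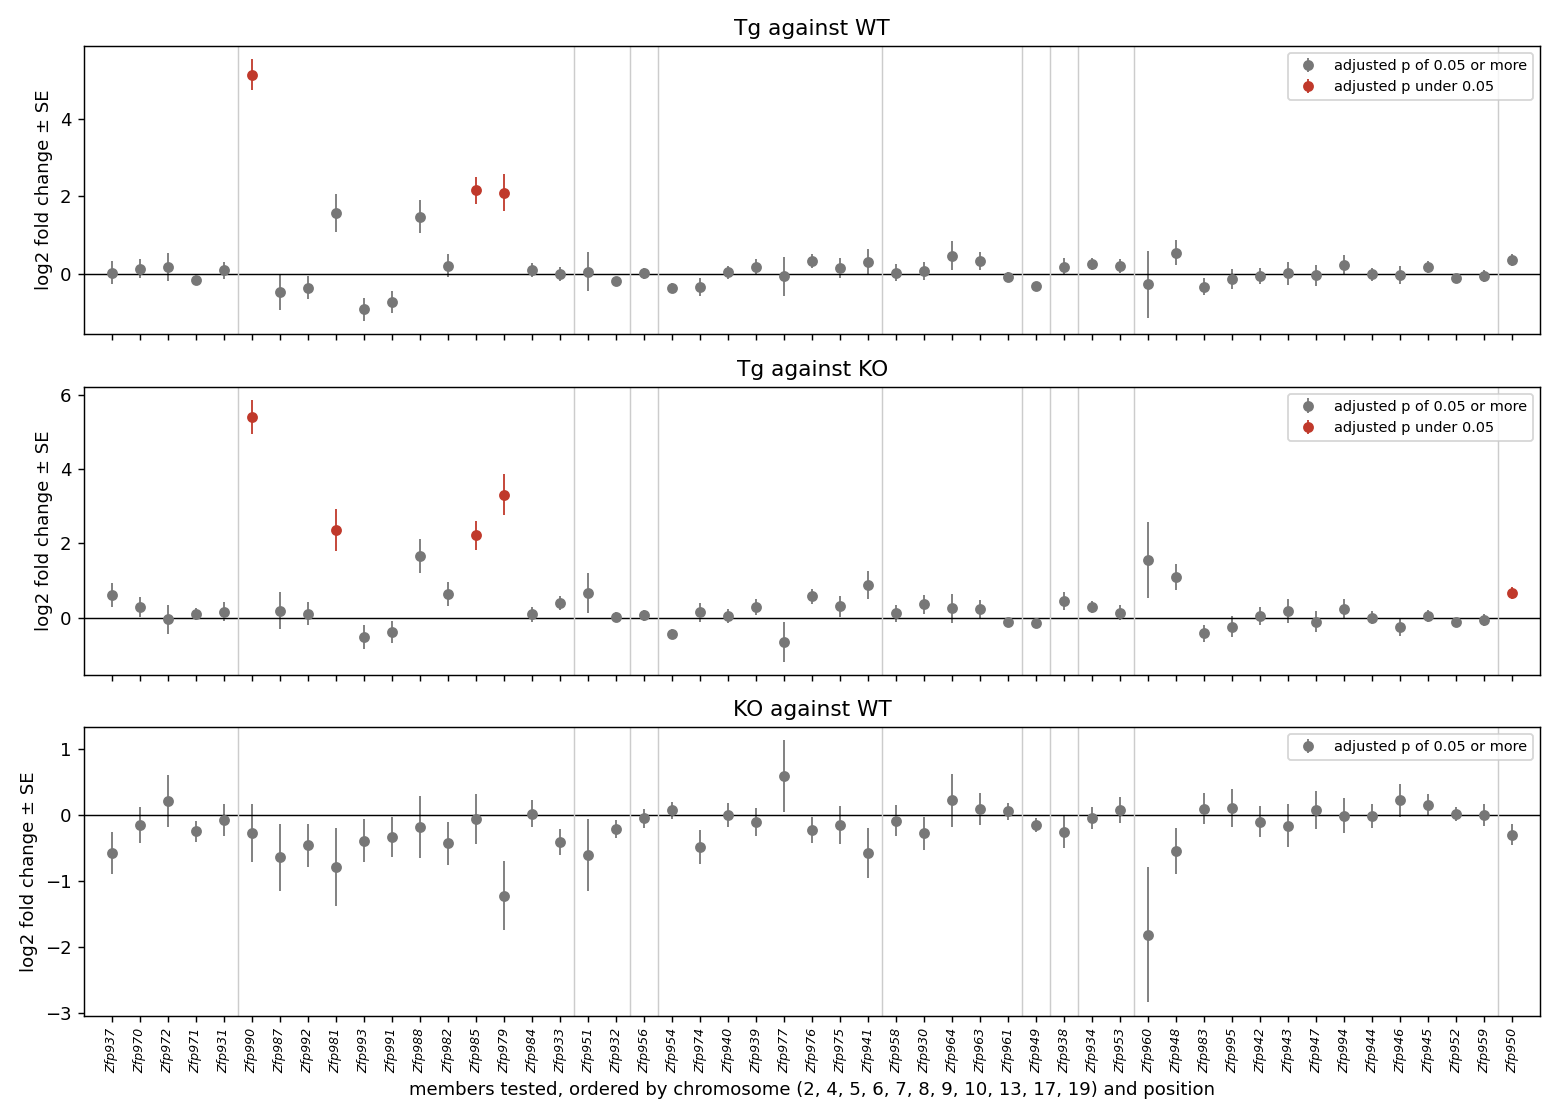
Log2 fold change ± SE of the 51 genes tested, for Tg against WT, Tg against KO and KO against WT, ordered by chromosome (separated by lines) and position. Red points have an edgeR adjusted p under 0.05: 3, 5 and 0 genes, all above 0 and all on chromosome 4 but Zfp950.

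Within a genotype, single libraries held the highest level of many of the genes. Tg replicate 4 held the highest Tg level of 29 of the 51 genes, against 27.1% of all genes. The summed level of the 54 genes was 526.2 ± 93.8 CPM in Tg (n = 4), 452.5 ± 39.4 CPM in KO (n = 3) and 490.2 ± 90.9 CPM in WT (n = 4), with overlapping ranges. For the chromosome 4 block it was 118.1 ± 33.3 CPM in Tg, 75.2 ± 13.5 CPM in KO and 91.8 ± 24.6 CPM in WT, and the lowest Tg library, at 97.7 CPM, lay above the highest KO library, at 83.6 CPM, and below the highest WT library, at 124.0 CPM. The block sums include Zfp990, with 12.9 to 31.1 CPM in Tg and 0.390 to 0.570 CPM in KO libraries. The gap between Tg and KO in the block sum rests on that gene. In such sorted cells fewer cells that express a gene and less RNA of it per cell cannot be told apart.

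Other genes of the block gave more called genes. Of the 67 other annotated genes between Zfp990 and Zfp933, 15 were tested, and 2 rose in Tg in both comparisons with none lower. Over all genes 2.54% were called higher in Tg against WT and 2.63% in Tg against KO. Both genes passed the filter on low counts only through their Tg libraries, the group where they were high. With the KO and WT libraries fitted alone, 13 other genes of the block were tested. Gm21411, a predicted gene, had 2.30, 1.62, 1.28 and 1.75 CPM in Tg libraries, 0.240, 0.210 and 0.536 CPM in KO libraries and 0.222, 0.123, 0.254 and 0.240 CPM in WT libraries. Its log2 fold change was 3.04 against WT (SE 0.40, edgeR adjusted p = 0.00419) and 2.41 against KO (SE 0.42, edgeR adjusted p = 0.00964). Zfp534, another zinc finger gene, averaged 0.813 ± 0.150 CPM in Tg (n = 4), 0.119 ± 0.0754 CPM in KO (n = 3) and 0.115 ± 0.0251 CPM in WT (n = 4). Its log2 fold change was 2.81 against WT (SE 0.46, edgeR adjusted p = 0.0111) and 2.68 against KO (SE 0.49, edgeR adjusted p = 0.0118). In both genes Tg lay above KO and WT without overlap. The KO and WT libraries of Zfp534 lay near the level of 3 counts given above, at 0.0335 to 0.175 CPM and 0.0922 to 0.144 CPM. Of the transcript windows of Zfp986 to Zfp989, 3.16% to 26.2% also occurred in Zfp534 and 2.7% to 6.3% in Gm21411. The part of the windows of Zfp534 and Gm21411 themselves that is shared was not measured, so that how far their counts are uncertain is not known. The calls against KO were lost without KO replicate 1 or 2 for Gm21411 (up to 0.0521) and without KO replicate 2 for Zfp534 (0.0531). For Zfp534 the call against KO was also lost with the Y-linked covariate (edgeR adjusted p = 0.0667). Without the libraries in which Xist and Y-linked reads occurred together both genes lost both calls, with edgeR adjusted p = 0.278 against WT and 0.395 against KO for Gm21411, and 0.330 against WT and 0.159 against KO for Zfp534.

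The 16 tested genes between members of the other blocks, and the 10 tested members of the chromosome 17 block, held 0 edgeR calls in any comparison, with 0 or 1 of each group at an unadjusted p under 0.05 per comparison and at most 1 DESeq2 call. Of the other numbered Zfp genes, 283 of 321 were tested, with 4 higher and 2 lower in Tg against WT, 5 higher and 0 lower in Tg against KO, and 0 in KO against WT by edgeR, where DESeq2 called 1 and 10 had an unadjusted p under 0.05. Their median log2 fold changes were -0.03, 0.05 and -0.06 in the same order.

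The proteins through which KRAB zinc fingers silence were read as a list of 22 genes. Of these, all tested, edgeR called 0 in KO against WT, with 0 at an unadjusted p under 0.05, against 7.09% of all genes. In Tg against WT edgeR called 0, with 5 at that level, against 22.1% of all genes. DESeq2 called 0 in both comparisons. In Tg against KO edgeR called 0 of the 22 higher and 1 lower, against 2.63% and 3.06% of all genes, which is near the background. At an unadjusted p under 0.05 there were 4, against 21.7% of all genes. DESeq2 called 2 lower, against 5.58%. The gene called by edgeR was Hdac1, a histone deacetylase: it averaged 87.9 ± 3.38 CPM in Tg (n = 4) and 118.1 ± 9.29 CPM in KO (n = 3), with WT at 102.7 ± 14.6 CPM (n = 4). Tg and KO did not overlap, while WT overlapped both. The log2 fold change of Tg against KO was -0.43 (SE 0.10, edgeR adjusted p = 0.0379). This call was lost when any Tg or KO library was left out (edgeR adjusted p up to 0.147). It was also lost with the Y-linked covariate (edgeR adjusted p = 0.142) and without the libraries in which Xist and Y-linked reads occurred together (0.533). Uhrf1, which guides maintenance DNA methylation, came next at -0.39 (SE 0.11, edgeR adjusted p = 0.0586; called by DESeq2), then Daxx, a histone H3.3 chaperone, at -0.32 (SE 0.11) and the remodeller Chd3 at -0.43 (SE 0.17). In Tg against WT the lowest p-values were those of the heterochromatin protein gene Cbx5 at -0.25 (SE 0.10, edgeR adjusted p = 0.161), Uhrf1 at -0.24, Hdac1 at -0.22 and Atf7ip, a partner of Setdb1, at -0.25. In KO against WT they were Hdac1 at 0.20, Daxx at 0.21, the remodeller Atrx at -0.17 and Tasor, of the HUSH complex, at -0.36. Of the 22 genes 17 lay below WT in Tg, with a median log2 fold change of -0.12, and all genes had a median of 0.01. In KO 16 of the 22 lay below WT, with a median of -0.04, and all genes had a median of -0.01. Of all genes 50.8% lay above WT in Tg and 48.8% in KO.

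Markers of other cell types moved with the Tg group, and their part in these results was not tested. Of 8 neutrophil granule genes 5 were called higher in Tg than in WT by edgeR, with a summed level of 4764 to 23870 CPM in Tg, 3732 to 4853 CPM in KO and 1360 to 3527 CPM in WT libraries. Of 6 B and plasma cell genes 2 were called lower, with 193.2 to 256.4 CPM in Tg, 1286 to 6151 CPM in KO and 331.4 to 4747 CPM in WT. Of 5 macrophage genes 2 were lower (2.49 to 9.14 CPM in Tg, 11.5 to 52.7 CPM in KO and 10.5 to 51.9 CPM in WT), as were 2 of 5 erythroid genes (3.35 to 12.2 CPM in Tg, 14.8 to 18.1 CPM in KO and 9.29 to 28.6 CPM in WT). Of 5 T and NK cell genes 1 was higher and 2 were lower, with 123.1 to 259.1 CPM in Tg, 90.0 to 107.1 CPM in KO and 82.6 to 110.1 CPM in WT. The 3 megakaryocyte genes held no call in Tg against WT (147.6 to 222.9 CPM in Tg, 55.6 to 101.7 CPM in KO and 85.4 to 155.7 CPM in WT), with 1 at an unadjusted p under 0.05. In Tg against KO edgeR called 2 neutrophil granule genes higher, and 3 B and plasma cell, 2 macrophage and 1 erythroid gene lower. Of the T and NK cell genes 1 was higher and 3 were lower there. The megakaryocyte gene Itga2b and the LSK marker Procr, named after their values were seen, were also called higher than in KO. Over all genes 2.54% were called higher and 2.39% lower in Tg against WT, and 2.63% higher and 3.06% lower in Tg against KO. No marker was at 0 in any group.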

How the data were processed

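Per the labels, RNA came from individual mice and was read in pairs from sorted bone marrow cells; 5 KO and WT libraries hold Xist and Y-linked reads together, which goes against that label, so that n counts libraries. The authors deposited raw counts of reads for each gene symbol, without normalisation. Per the submitters' processing notes, FastQC, Trimmomatic, STAR, HTSeq and the build mm10 were used. Versions, annotation and strand setting are not stated there. Positions, exonic lengths and biotypes were taken from GENCODE M21 on GRCm38, which is mm10, and promoters from RefSeq (GRCm38.p6).

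One edgeR model (version 4.0.16, R 4.3.3) covered all 11 libraries, scaled by TMM and without covariates, and filterByExpr by genotype left 17183 genes to test. Contrasts were tested by quasi-likelihood F tests, with calls at an adjusted p (Benjamini-Hochberg, over all genes) under 0.05. The SE is the log2 fold change divided by the square root of F. Every library served as 1 replicate, and no library looked like a copy of another. The fit was tested on simulated data. Figures were drawn with matplotlib 3.10.9 in Python 3.11.15, and promoters were aligned with Biopython 1.88.

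The genes, lists, tests and blocks were chosen with earlier results of these data known. Named by rule were called genes, the 3 with the lowest p per contrast, the 3 with the highest mean CPM, those at the count limit, up to 4 silencing partners per contrast, and called genes between members of a block; other names are marked. Alternatives were DESeq2 1.42.0, limma-voom (limma 3.58.1), other scaling factors, other filters on low counts, fits of the compared groups alone, a replicate block, a Y-linked covariate, leaving out each library, and leaving out the 5 libraries that held Xist and Y-linked reads together.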

Additional observations from a re-analysis of the deposited data

Results flagged for a closer look

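Zfp942, one of the 3 genes of the family with the highest read level, had 1 Tg library far from the others: 36.8 CPM in Tg replicate 4, against 20.3, 21.7 and 20.3 CPM in the other Tg libraries. The gap between it and the next library exceeded Dixon's limit for 4 samples. A total of 22 groups of values were examined in this way, of which chance flags about 1 in 20. The log2 fold change of Zfp942 was -0.06 in Tg against WT (SE 0.22, edgeR adjusted p = 0.909) and its groups overlapped.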

How the results depend on the processing

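The call of Zfp990 was kept in both Tg comparisons under every alternative run. The count of genes of the family called in Tg against WT (3) was 5 with DESeq2 and 1 without the 5 libraries that held Xist and Y-linked reads together. It was 2 with the Y-linked level as a covariate. In Tg against KO (5) it was 8 with DESeq2, 2 with that covariate (Zfp990 and Zfp979) and 1 without those libraries. When 1 library was left out, the counts were 2 to 3 in Tg against WT, 2 to 6 in Tg against KO and 0 to 0 in KO against WT. With the replicate number as a block, 3 were called in Tg against KO (Zfp990, Zfp979 and Zfp985) and 2 in Tg against WT (Zfp990 and Zfp985). The block also ended the calls of Zfp979 in Tg against WT (edgeR adjusted p = 0.0539) and, in Tg against KO, of Zfp981 (0.115), Zfp950 (0.111), Zfp534 (0.0567) and Hdac1 (0.138). Deviations from the group mean correlated between -0.245 and 0.096 for same-numbered libraries and between -0.344 and 0.308 for the others. Such deviations are not independent within groups of so few libraries, so that this check cannot decide whether the numbers pair libraries. Without the 5 libraries that held Xist and Y-linked reads together, 4 uncalled KO against WT log2 fold changes turned sign, to 0.10 for Zfp974, -0.14 for Hdac1, -0.034 for Daxx and 0.092 for Tasor; the cause was not tested, and 1 KO and 1 WT library remain there. All genes called numbered 846 in Tg against WT and 978 in Tg against KO, and 1912 and 1922 with DESeq2, 1422 and 463 with the Y-linked covariate, 221 and 303 with the block, 358 and 1064 with the compared groups alone, and 32 and 84 without those libraries. The 2 other genes called in the chromosome 4 block did not reach the filter of 2 CPM in 3 libraries. Depth limits Zfp981, Zfp986, Zfp978 and Zfp989 most.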

Other observations

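The genes around the chromosome 4 block were counted after its values were seen. In the 5 Mb before the block 38 genes were tested, of which edgeR called 0 higher and 1 lower in Tg against WT, and 3 higher and 1 lower in Tg against KO. In the 5 Mb after it 70 genes were tested, of which 9 were called higher and 3 lower in Tg against WT, and 5 higher and 3 lower in Tg against KO. Over all genes 4.92% and 5.69% were called in these comparisons. In KO against WT edgeR called 0 on either side, with 6 genes before the block and 4 after it at an unadjusted p under 0.05, and DESeq2 called 0 before and 1 after.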
